A study of Mus musculus with 2 samples.

Results

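Deep intronic sites are accessible stretches of DNA that lie inside a protein-coding gene, in no exon, and more than 20 kb from every annotated transcription start site (TSS). In frontal cortex of young mice, DNase-seq peaks of replicate 1 that overlapped a peak of replicate 2 by 1 bp or more were placed by their midpoint in GENCODE vM21, and 2668 of 40822 shared autosomal peaks fulfilled this rule (6.54%, 95% Wilson interval 6.30% to 6.78%). They had 1200 host genes. Each such peak of replicate 1 counted as a site, also where neighbours overlapped the same peak of replicate 2. Intronic sites 1 to 20 kb from a TSS (5702) and intergenic sites more than 20 kb from a TSS (4048) served for comparison, the first as the same kind of DNA nearer to a start and the second as DNA equally far from a start outside genes. The rule used position and presence in both libraries, and no direct measure of strength, footprints, host gene function or sequence. Presence in both libraries still favoured stronger peaks, which were found in the other library more often. Strength and the share of sites with footprints are therefore not independent of the rule.

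Most of the DNA of a long gene is intron, and introns can hold enhancers, insulators and other regulatory elements as well as the splice signals of the gene. DNase I cuts DNA where nucleosomes have been displaced by bound factors, and within such a site a short stretch covered by a factor is cut less and appears as a footprint. Many of the longest genes of the mouse genome encode proteins of neurons, among them synaptic adhesion molecules, ion channels and regulators of transcription, so that in brain the interior of long genes is a large share of the DNA that can hold regulatory elements.

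The tissue was frontal cortex of male B6CASTF1/J mice, the F1 cross of C57BL/6J and CAST, aged 10 days, with no treatment in the labels. There was 1 group with 2 biological replicates, each from its own biosample. A note in the labels gives 3 males for each sample and does not say whether they were pooled, and both samples carry the same donor entry, so that the spread between libraries may be technical. Every comparison below is therefore between classes of DNA within these libraries, and none is over samples. Reads of the F1 cross were placed on a C57BL/6J reference, which may favour that allele.

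The libraries held 48719 peaks (replicate 1) and 53079 peaks (replicate 2) on the autosomes, of which 3362 and 4056 had a deep intronic midpoint. Sequencing depth is unknown from these files, so that intervals on shares and rates cover counting error only. They also treat sites as independent, so that they may be too narrow where sites cluster. A shared promoter peak, within 1 kb of a TSS, was found for 12 of 14 marker genes of excitatory neurons, 10 of 15 of interneurons, 12 of 14 of astrocytes, 11 of 18 of oligodendrocytes and their precursors, 6 of 12 of microglia and 5 of 13 of endothelial and mural cells, against 9 of 24 long genes of other tissues and 12190 of all 20807 autosomal protein-coding genes. In a tissue of mixed cells, fewer cells of a type and weaker opening in each cell cannot be told apart.

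Some of the strongest sites are shown first, to give a picture of such an element. Each line holds the 151 bp around the midpoint of a site, in GRCm38.p6 (mm10), plus strand, 5′ to 3′, and capitals mark bases inside a footprint of both libraries. They are among the 10 sites with the highest mean strength percentile over both libraries. Klhl29 encodes a Kelch-like protein, Myt1l a zinc finger transcription factor of neurons and Trpm3 a cation channel.
Klhl29 (chr12:5119815-5119965): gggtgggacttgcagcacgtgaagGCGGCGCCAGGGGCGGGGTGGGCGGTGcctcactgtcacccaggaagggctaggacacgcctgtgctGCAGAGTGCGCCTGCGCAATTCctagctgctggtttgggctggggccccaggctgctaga
Myt1l (chr12:29872534-29872684): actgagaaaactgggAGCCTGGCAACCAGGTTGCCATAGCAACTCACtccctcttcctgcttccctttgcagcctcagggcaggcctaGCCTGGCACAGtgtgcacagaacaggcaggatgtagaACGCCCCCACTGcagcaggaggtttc
Trpm3 (chr19:22916727-22916877): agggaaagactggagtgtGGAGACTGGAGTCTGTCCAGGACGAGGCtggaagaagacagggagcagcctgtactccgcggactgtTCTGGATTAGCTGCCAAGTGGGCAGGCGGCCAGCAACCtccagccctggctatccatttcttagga
The Klhl29 site lay 52.4 kb from the nearest TSS, and footprints of both libraries covered a GC-rich stretch with an SP/KLF match. In the Myt1l window the capitals near the left end hold RFX matches on both strands. The Trpm3 window, 144.7 kb from any TSS, has its NFI match inside the longer run of capitals, on the right.

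A second set shows motif matches that overlapped a footprint of both libraries, each at a strong site for its motif. The examples were not drawn from all autosomes, so that a stronger such site may exist. Each line holds the match in capitals with 20 bp on each side, on the plus strand of GRCm38.p6. CTCF is an insulator and loop-anchoring factor, RFX and NFI factors bind enhancers of neural cells, CREB-type factors bind the cAMP response element (CRE), EGR and AP-1 factors are induced by neuronal activity, and neuronal bHLH factors bind E-boxes.
Pebp4, CTCF (chr14:69861556-69861607): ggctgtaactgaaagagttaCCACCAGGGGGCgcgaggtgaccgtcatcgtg
Myt1l, RFX (chr12:29872533-29872579): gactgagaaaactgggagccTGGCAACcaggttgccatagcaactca
Trpm3, NFI (chr19:22916803-22916848): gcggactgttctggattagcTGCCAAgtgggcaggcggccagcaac
Ramp1, E-box CAGCTG (chr1:91210039-91210084): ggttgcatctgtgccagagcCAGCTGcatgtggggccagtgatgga
Pde4d, CRE (chr13:109822577-109822624): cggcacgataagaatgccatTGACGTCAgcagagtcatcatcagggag
Ulk4, EGR (chr9:121075463-121075511): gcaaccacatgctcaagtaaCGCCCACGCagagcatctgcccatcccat
Sh3rf3, AP-1 (chr10:59115170-59115216): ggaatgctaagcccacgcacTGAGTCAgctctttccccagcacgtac
The CTCF example in Pebp4 lay 21.2 kb from a TSS and its peak had a density percentile of 83.6 in replicate 1 and 82.6 in replicate 2. Pde4d, which encodes a cAMP phosphodiesterase, held the CRE match, 65.3 kb from a TSS, with a density of 5.04 in replicate 1 and 3.69 in replicate 2.

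Strength is the cleavage density that the authors deposited with each peak, ranked as a percentile within the list of its library. The median deep intronic site stood at percentile 36.6 in replicate 1 and 43.1 in replicate 2. Over all deep intronic peaks of a single library, shared or not, the medians were lower, at 30.65 in replicate 1 and 31.11 in replicate 2. Intronic sites 1 to 20 kb from a TSS had medians of 47.3 and 54.1, intergenic sites beyond 20 kb 33.7 and 37.5, and all shared peaks 57.4 and 60.8. Deep intronic sites thus ranked between the other classes in both libraries, and the order of the 3 classes was the same in each. When all shared peaks were sorted by mean percentile into 10 bins of equal size, the weakest bin held 475 deep intronic sites of 4082 peaks (11.6%) and the strongest held 7 of 4083 (0.171%), with a fall at every step between them. The density of a deep intronic site ranged from 0.364 to 8.90 in replicate 1, with a median of 1.08, and from 0.305 to 10.1 in replicate 2, with a median of 0.888. Across the 2668 sites the percentiles of the libraries had a Spearman correlation of 0.773, beside 0.808 over near intronic and 0.796 over far intergenic sites. This describes sites that share their libraries and carries no test.

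The strongest site of all was in Nol4, 33.0 kb from a TSS on chromosome 18, with a density of 8.90 in replicate 1 and 10.1 in replicate 2. A site in Gse1, which encodes a coiled-coil protein found with histone deacetylase complexes, had 8.27 and 4.48, the Klhl29 site 7.09 and 5.47, and the Myt1l site 6.33 and 5.47. Within the protocadherin cluster on chromosome 18, a site in the long models Gm37013, Gm37388 and Gm42416 had 5.87 and 5.88. The Trpm3 site had 5.73 and 4.41, and a site in Bach2, a repressor of the bZIP family, had 5.64 and 3.30. Kcnq3, a subunit of the potassium channel behind the M current, had 5.29 and 3.95, and Jarid2, a partner of the Polycomb repressive complex, 5.08 and 3.83. The 10 sites with the highest mean percentile were at percentile 89.4 or above in both libraries, while their order differed between the libraries.

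**Figure D1:**
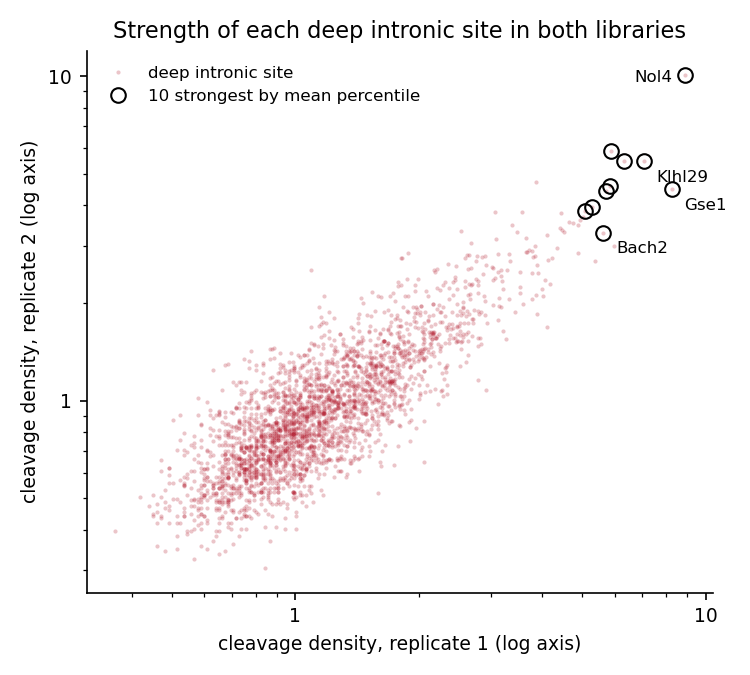
Cleavage density of each of the 2668 deep intronic sites in replicate 1 (horizontal, log axis) and replicate 2 (vertical, log axis). Circles mark the 10 sites with the highest mean percentile; the median site lies at 1.08 and 0.888, and the Nol4 site stands highest in both libraries.

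Deep intronic DNA, counted base by base with the same rule, made up 320.1 Mb or 13.4% of the autosomes. It held 8.34 sites per Mb (exact 95% Poisson interval 8.02 to 8.66). Intronic DNA 1 to 20 kb from a TSS held 11.3 per Mb (10.98 to 11.6) and intergenic DNA beyond 20 kb held 5.94 per Mb (5.76 to 6.12). Both intervals lie apart from that of deep intronic DNA, so that per Mb it held fewer sites than introns near a start and more than far intergenic DNA. Repeats, marked in the reference by lower case, covered 38.9% of far intergenic, 28.9% of deep intronic and 29.0% of near intronic DNA. Rates without repeats were not computed, and the part of repeats in these differences was not tested. The excess of 2.40 sites per Mb over far intergenic DNA was 0.933 with the stricter list and 4.21 with the looser list. It kept its sign with each peak list and overlap rule tried.

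Beyond 20 kb, sites per Mb fell from bin to bin of distance in both kinds of DNA. Introns held 10.1 sites per Mb at 20 to 30 kb, 8.97 at 30 to 50 kb, 7.87 at 50 to 100 kb, 5.20 at 100 to 200 kb and 4.35 beyond 200 kb. Intergenic DNA in the same bins held 8.90, 7.14, 5.47, 3.17 and 1.79. Intervals of the 2 kinds of DNA did not overlap in any of these 5 bins, with introns the higher each time, though at 20 to 30 kb they came close (9.43 to 10.8 in introns and 8.41 to 9.41 in intergenic DNA). Nearer to a start, introns were also higher at 1 to 2 kb, with 18.6 per Mb (17.5 to 19.7) against 15.3 (14.1 to 16.6) in intergenic DNA. The intervals overlapped in the bins between, where introns held 11.5 per Mb and intergenic DNA 11.6 at 2 to 5 kb, 9.63 and 10.5 at 5 to 10 kb, and 9.94 and 9.63 at 10 to 20 kb. Just inside the distance limit, the 187 sites at 20 to 22 kb had median percentiles of 37.3 and 46.8 in replicates 1 and 2, beside 41.4 and 48.7 for the 254 intronic sites at 18 to 20 kb.

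**Figure D2:**
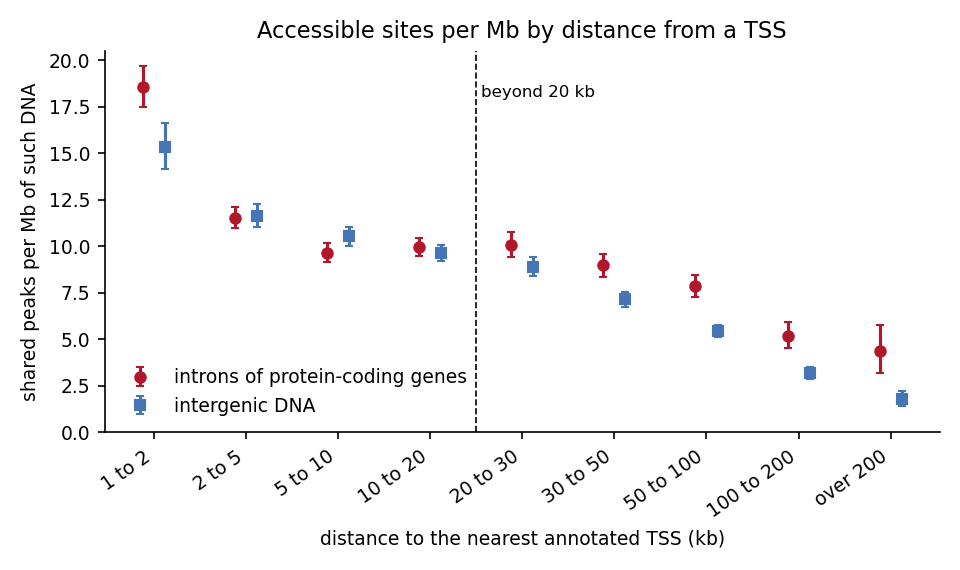
Shared peaks per Mb of intronic (circles) and intergenic DNA (squares) by distance to the nearest annotated TSS in kb, with exact 95% Poisson intervals. Beyond 20 kb (dashed line) introns lie above intergenic DNA in every bin, for example at 4.35 against 1.79 per Mb beyond 200 kb.

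The farthest sites lay in Ptprd, which encodes a receptor tyrosine phosphatase that organises synapses, at 624.9 and 564.0 kb from any TSS. The first had a density of 0.898 in replicate 1 and 0.609 in replicate 2, and the second 0.781 and 1.005. The next was in Dcc, the netrin receptor, at 397.4 kb, with 0.717 and 0.810. All of these were at percentile 51.9 or below in both libraries, and each held a footprint in both.

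The rule keeps midpoints out of exons, and the distances of sites to exons have no count over all deep intronic DNA beside them. The median distance to the nearest exon was 11.4 kb, 1415 sites (53.0%) were more than 10 kb from an exon and 317 lay within 1 kb of one. Intron 1, counted over the merged exons of a gene, held 9.05 sites per Mb of such DNA (8.19 to 9.97) and introns from the fourth on held 8.19 (7.80 to 8.59), with intervals that overlap. Larger introns were sparser: those of 40 to 60 kb held 9.61 per Mb (8.64 to 10.7) and those over 200 kb 6.45 (5.74 to 7.23).

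Another deep intronic site lay within 10 kb of 812 of them (30.4%) and within 2 kb of 389 (14.6%). These counts include adjacent peaks of replicate 1 that overlapped the same peak of replicate 2. Linking neighbours no more than 10 kb apart gave 73 chains of 3 or more sites, a grouping chosen after the data had been seen. The longest was in Gse1, with 7 sites over 35.03 kb (chr8:120288458-120323490) and median densities of 1.59 in replicate 1 and 1.36 in replicate 2. Celf4, a neuronal RNA-binding protein, had 6 sites over 16.8 kb, and Megf11, a transmembrane protein with EGF repeats, had 5 over 8.48 kb.

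Of 20807 autosomal protein-coding genes, 4392 had any deep intronic DNA, and 1200 of these (27.3%) were hosts. This share depends on how much such DNA a gene has: it was 2.50% among the 879 genes with the least (up to 6.34 kb) and 67.1% among the 879 with the most (over 90.5 kb). Of the hosts, 611 held 1 site, 314 held 3 or more and 17 held 10 or more. A shared promoter peak was present for 975 of the 1200 hosts (81.3%), against 2210 of the 3192 genes with such DNA and no site (69.2%). Hosts had a median of 87.9 kb of such DNA and the others 15.6 kb. In 5 groups of genes from least to most such DNA, the share was 81.8%, 72.3%, 74.6%, 80.2% and 85.1% of hosts. Among genes without a site it was 65.3%, 68.3%, 68.05%, 74.7% and 75.8%. The group with least such DNA held only 22 hosts. Genes with a shared promoter peak held 8.74 sites per Mb of deep intronic DNA (8.39 to 9.10) and genes without one 6.78 (6.11 to 7.49).

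A pair of very long gene models held the most sites. Gm20388, a model of 4435 kb that contains Gse1, had 37 sites, and Fgfr2, whose annotated model of 2961 kb contains Chst15, had 23. Only 18 and 12 of these sites had no other host. Without both models 2638 sites and 1198 hosts remained.

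Among the other hosts, Gse1 had the most, with 17 sites in 179.8 kb of deep intronic DNA (9.46 per 100 kb). Their density was 1.17 at the lowest, 1.89 at the median and 8.27 at the highest in replicate 1, and 0.869, 1.42 and 4.48 in replicate 2. The weakest Gse1 site of either library was at percentile 41.5. Ctif, a translation initiation factor that acts with the cap-binding complex, had 12 sites in 161.6 kb (7.43 per 100 kb).

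Asic2, an acid-sensing channel subunit, had 16 sites in 826.0 kb, with a median density of 1.06 in replicate 1 and 0.946 in replicate 2. Nrxn3, a presynaptic adhesion receptor, also had 16, but in 1221 kb and at lower medians of 0.882 and 0.697. Ptprn2, a phosphatase-like protein of secretory vesicles, had 15, and so had Rbfox1, a splicing factor of neurons, while Auts2, a regulator of genes in developing neurons, had 14 and Lsamp, an adhesion protein of limbic circuits, 12. The Lsamp sites were spread over 1793 kb of deep intronic DNA (0.669 per 100 kb), the sparsest of these 10 hosts.

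By sites per 100 kb, among hosts of 3 or more, the densest were short stretches. Gucy2g, a receptor guanylate cyclase, had 3 sites in 8.23 kb, Zc3h3, a zinc finger protein of mRNA processing, 3 in 12.8 kb, and Jade2, a partner of histone acetyltransferases, 3 in 17.9 kb. Chst15, a chondroitin sulfate sulfotransferase, had 3 in 19.9 kb and Dlgap4, a postsynaptic scaffold protein, 4 in 27.0 kb. With so few sites, these rates carry a wide counting error. Adjacent sites at 22.64 and 22.82 kb from the start of Gucy2g had the same replicate 2 density, 1.44. Those at 50.86 and 51.35 kb in Dlgap4 also shared theirs, 1.21. The same peak of replicate 2 may have been matched to both sites of such a pair. Gucy2g had no shared promoter peak, whereas the other 4 had one.

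**Figure D3:**
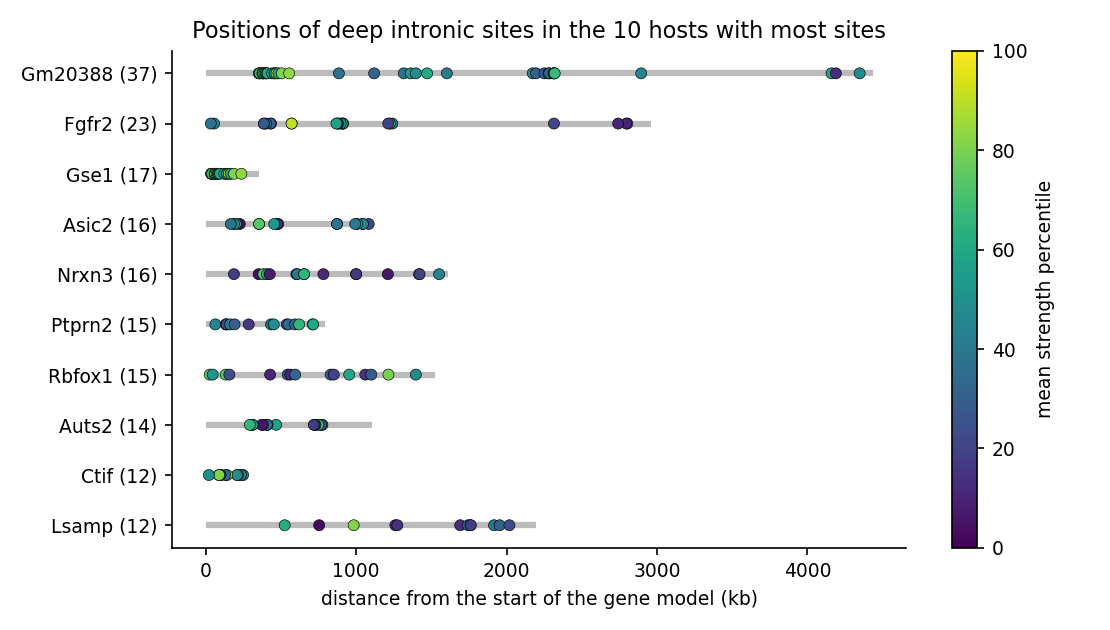
Positions of sites along the 10 host gene models with most sites, as distance in kb from the start of the model (grey bar, to scale), coloured by mean strength percentile over both libraries. Gse1 packs 17 sites into its 353 kb, while Lsamp spreads 12 over 2197 kb.

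Host genes were also described by function, with 16 lists whose members were chosen with earlier results of these data known. Counts stand beside the 27.3% of all genes with deep intronic DNA, but the share of hosts depends on how much such DNA a gene has, so that rates per Mb are given too. Transcription regulators held 103 sites at 11.1 per Mb (9.05 to 13.5) and kinases and phosphodiesterases 88 at 10.2 (8.18 to 12.6), set against 8.34 over all protein-coding genes. The interval of kinases and phosphodiesterases includes that rate. Single genes weighed on both lists, with 14 sites in 436.6 kb of Auts2 and 23 in 787.7 kb of the long Fgfr2 model. Rates without these genes were not computed. The intervals treat sites as independent, although 30.4% of all sites had another within 10 kb, so they may be too narrow. Synaptic adhesion genes held the most sites of any list, 124, but only 5.21 per Mb (4.33 to 6.21), and glutamate receptors 31 at 4.76 (3.23 to 6.75). The intervals of these last lists lie below the rate over all genes, as do those of the interneuron and oligodendrocyte lists. Long genes of other tissues had a rate near that of synaptic adhesion genes, 5.32 per Mb (3.10 to 8.52).

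Among transcription regulators, 29 of 44 genes with deep intronic DNA were hosts. Auts2 led with 14 sites, followed by Camta1, a calmodulin-binding activator, with 9 and Nfib, an NFI factor, with 8. Camta1 held a site of density 4.47 in replicate 1 and 3.35 in replicate 2. Foxp2, a forkhead factor of deep-layer projection neurons, had 310.1 kb of such DNA, a shared promoter peak and no site.

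Of the kinases and phosphodiesterases, 24 of 30 were hosts, and 23 of the 88 sites lay in the long model of Fgfr2, a receptor of fibroblast growth factors. Pde4d and Prkce, a protein kinase C isoform, had 8 sites each, and those of Prkce were strong, with median percentiles of 71.1 in replicate 1 and 80.8 in replicate 2. Ntrk3, the receptor of neurotrophin 3, had none in 191.9 kb. Ion channel genes held 69 sites (9.47 per Mb, 7.37 to 11.98) in 22 of 31 genes. After Asic2 came Cacna1e, a calcium channel subunit, and Kcnq3 with 6 each, while Kcnh7, a potassium channel gene, had none in 409.0 kb.

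Postsynaptic scaffold genes, a list that also holds Dab1 and Rbfox1, had 78 sites (9.36 per Mb, 7.402 to 11.7) in 14 of 17 genes. Dab1, an adaptor of reelin signalling, had 10 in 922.9 kb and Shank2, a postsynaptic density scaffold, 9 in 212.9 kb. Sntg1, a syntrophin, had none in 500.4 kb. Axon guidance genes had 49 sites (7.35 per Mb, 5.44 to 9.72) in 16 of 27 genes, led by Plxna4, a semaphorin receptor, with 8, Ephb2, an ephrin receptor, with 7 in 99.5 kb and Slit3, a secreted ligand of Robo receptors, with 6. Sema6d, a semaphorin, had none in 389.3 kb.

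In synaptic adhesion genes, 24 of 31 were hosts, and after Nrxn3 and Lsamp came Ntm, a GPI-anchored adhesion protein, with 11. Their sites had median percentiles of 24.2 in replicate 1 and 30.5 in replicate 2, beside 36.6 and 43.1 over all deep intronic sites. Csmd3, a large transmembrane protein, had a shared promoter peak and no site in 922.7 kb. Of glutamate receptor genes, 14 of 18 were hosts, with Grik4 (6), Grik1 (4) and Gria1 (3) in front, all subunits of ionotropic receptors. Grik2 had none in 318.3 kb. GABA-A receptor genes held 10 sites in 7 of 10 genes (7.04 per Mb, 3.38 to 13.0), of which Gabrb1 and Gabrg3 had 3 each and Gabra2 had 1, while Gabrg1 had none.

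Marker genes of cell types gave small counts. Excitatory neuron markers held 7 sites (8.58 per Mb, 3.45 to 17.7), with 3 in the layer factor Cux2 and 2 in Bcl11b. Astrocyte markers held 38 sites (7.43 per Mb, 5.26 to 10.2), most of them in Lsamp and Ntm, which are also on the adhesion list, while Gpc5, a glypican, had 4 and Prex2 none. Interneuron markers held 7 sites at 2.98 per Mb (1.20 to 6.13), with 2 in Adarb2, 1 in the neuregulin receptor gene Erbb4, 1 in Gad1, which encodes a GABA-synthesising enzyme, and none in Kcnmb2. Markers of oligodendrocytes and their precursors held 7 at 3.28 per Mb (1.32 to 6.75), with 3 in the matrix gene Tnr, 2 in Lhfpl3, 1 in Pcdh15 and none in St18.

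Microglia markers held 9 sites (9.91 per Mb, 4.53 to 18.8), of which 8 were in Arhgap15, a Rac GTPase-activating protein whose promoter had no shared peak, and 1 in Apbb1ip, with none in Runx1. Endothelial and mural markers held 3 sites (3.99 per Mb, 0.824 to 11.7), with 1 each in Flt1, Ebf1 and Pdgfrb and none in Mecom. Long genes of other tissues held 17 sites at 5.32 per Mb (3.10 to 8.52). Pkhd1, a gene of kidney cilia, had 4, Abca13 3, Dnah9, an axonemal dynein, 2, and Dnah5 none. Their sites had median percentiles of 14.0 in replicate 1 and 16.8 in replicate 2, beside 36.6 and 43.1 over all deep intronic sites. The 12 autosomal housekeeping genes had no deep intronic DNA.

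**Figure D4:**
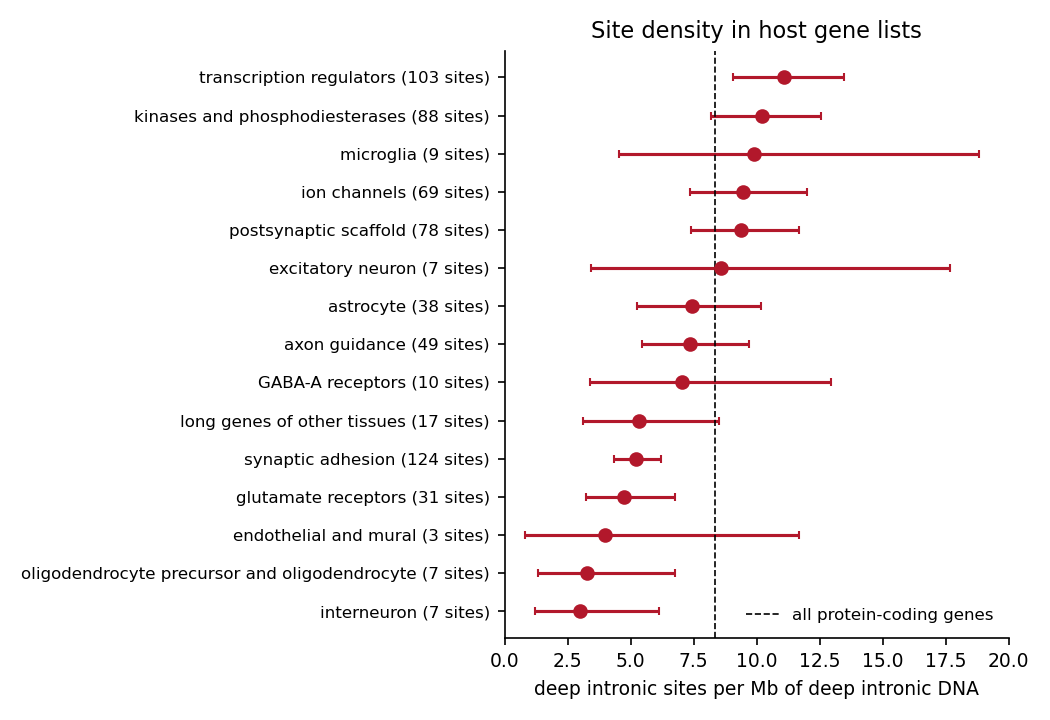
Deep intronic sites per Mb of deep intronic DNA in each host gene list, with exact 95% Poisson intervals and the number of sites in brackets; the dashed line marks 8.34 per Mb over all protein-coding genes. The interval of transcription regulators lies to the right of the line. Those of synaptic adhesion, glutamate receptor, interneuron and oligodendrocyte genes lie to the left.

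A peak of one library need not recur in the other, and this was asked of all peaks with a deep intronic midpoint. Recurrence is part of the rule, so the recurring peaks of replicate 1 are the members themselves. The tests of recurrence therefore describe the peak lists and give no support for the members. Over all autosomal peaks, 83.8% of replicate 1 and 77.0% of replicate 2 overlapped a peak of the other library. Among deep intronic peaks the shares were 79.4% (2668 of 3362) for replicate 1 and 66.0% (2677 of 4056) for replicate 2. Near intronic peaks gave 81.0% and 67.7%, and far intergenic peaks 80.5% and 69.4%. By two-sided Fisher's exact test, with Benjamini-Hochberg adjustment over 40 tests of sites that are not independent replicates, only the difference from far intergenic peaks in replicate 2 passed (adjusted p = 0.0024, against 0.118, 0.370 and 0.151 for the others). By the same Fisher's exact test, that call ended with the looser list (adjusted p = 0.109), and with equal list sizes the difference from far intergenic peaks turned positive in replicate 1, at 3.65 percentage points (adjusted p = 0.00146).

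Recurrence rose with strength, so it was also compared among peaks of like strength. These tests, too, describe the peak lists and give no support for the members. Between percentiles 25 and 50 of replicate 2, 69.5% of deep intronic peaks recurred, against 60.8% of near intronic peaks (adjusted p = 1.3e-06, Fisher's exact test) and 80.6% of far intergenic peaks (adjusted p = 1.2e-09). By the same exact test, the shares between percentiles 50 and 75 were 91.6%, against 83.6% near (adjusted p = 1.5e-08) and 94.4% far intergenic (adjusted p = 0.0442). In replicate 1 between percentiles 25 and 50 they were, by Fisher's exact test, 83.2%, against 79.2% near (adjusted p = 0.0189) and 88.6% far intergenic (adjusted p = 0.00119). With the stricter list the last difference from far intergenic peaks turned round, to 85.4% against 84.6% (Fisher's exact test, adjusted p = 0.809), and it did not pass beyond 50 kb or with the smaller list from filtered alignments. The difference from near intronic peaks in that bin did not pass with lists of equal size or gene starts as the only TSSs. Between percentiles 50 and 75 of replicate 2, the difference from far intergenic peaks did not pass with the stricter list, lists of equal size or 50% reciprocal overlap, nor did that from near intronic peaks beyond 50 kb. In replicate 1 between percentiles 50 and 75 they recurred in 97.7%, against 95.1% near (Fisher's exact test, adjusted p = 0.0079) and 98.1% far intergenic (adjusted p = 0.842). The near call of that bin did not pass with the stricter list, beyond 50 kb or with the smaller list from filtered alignments. Below percentile 25 of replicate 1 the shares were 63.9%, against 60.9% near (Fisher's exact test, adjusted p = 0.185) and 66.1% far intergenic (adjusted p = 0.314), and with lists of equal size the difference from far intergenic peaks was 5.62 percentage points. Below percentile 25 of replicate 2 they recurred in 44.3%, against 41.4% near (Fisher's exact test, adjusted p = 0.187) and 49.5% far intergenic (adjusted p = 0.00329). In the strongest bin, above percentile 75, all 170 deep intronic peaks of replicate 1 and 264 of 265 of replicate 2 recurred.

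Footprints were called by the authors apart from the peaks, but stronger sites held one more often, and the rule favours stronger peaks. Over all deep intronic peaks of a single library, shared or not, 89.05% (replicate 1) and 95.32% (replicate 2) held a footprint. Of all shared peaks, 88.9% held a footprint of replicate 1 and 92.7% one of replicate 2. Deep intronic sites held one in 91.8% (replicate 1) and 96.4% (replicate 2), near intronic sites in 91.1% and 95.4%, and far intergenic sites in 91.3% and 94.99%. Only the difference from far intergenic sites in replicate 2 passed (adjusted p = 0.0241, Fisher's exact test), and it did not pass with the stricter list (adjusted p = 0.0528) or the looser list (adjusted p = 1). Among sites between percentiles 25 and 50, deep intronic sites held a footprint in 94.8% in replicate 1 and near intronic sites in 89.7% (Fisher's exact test, adjusted p = 4.2e-05). In replicate 2 they did so in 96.1% and 93.5% (Fisher's exact test, adjusted p = 0.0241), a difference that became -0.50 percentage points with the smaller footprint list deposited for that library. Neither call passed with the stricter list or the larger list from filtered alignments. That of replicate 1 also did not pass beyond 50 kb, nor that of replicate 2 with 50% reciprocal overlap or the smaller list from filtered alignments. Far intergenic sites of the same percentiles held a footprint in 95.6% in replicate 1 and 95.6% in replicate 2, which did not differ past the threshold from deep intronic sites (Fisher's exact test, adjusted p = 0.605 and 0.845). With the looser list or gene starts as the only TSSs, deep intronic sites were lower than far intergenic sites in replicate 1, and with the larger other footprint list they were higher in replicate 2. A site held a median of 2 footprints in replicate 1 and 3 in replicate 2, and 29 of 2668 sites (1.09%) held none in either.

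Base composition was not used by the rule. The median site was 287 bp wide with a GC content of 51.3%, against 45.3% in windows 1 kb away and 41.3% over all deep intronic DNA. Observed over expected CpG was 0.252 at the median deep intronic site, 0.255 at near intronic sites and 0.474 over all shared peaks, which include promoters in CpG islands. Repeats marked in the reference by lower case covered a median of 6.65% and a mean of 8.21% of a site, against 28.9% of all bases of deep intronic DNA. They covered 50% or more of 22 sites (0.825%).

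Motif letters were searched on both strands within 75 bp of each midpoint and in the same length of DNA 1 kb to each side, and a match is a description and not a bound site. The CTCF consensus was found in 195 sites (7.31%, Wilson interval 6.38% to 8.36%), against 9 of 5336 windows 1 kb away (0.169%) and 0.0550% of 2105233 windows over all deep intronic DNA. Near intronic sites had it in 9.24% and far intergenic sites in 7.83%. Of the 196 CTCF matches in deep intronic sites, 84.7% overlapped a footprint of both libraries, and their median distance from the midpoint was 12.5 bp. Footprints covered 79.6% (replicate 1) and 88.1% (replicate 2) of the bases of these matches, beside 14.9% and 18.2% of all bases in the windows. Beyond 100 kb from a TSS 9 of 261 sites (3.45%, 1.82% to 6.42%) held the consensus, against 64 of 890 (7.19%, 5.67% to 9.08%) at 20 to 30 kb, with intervals that overlap.

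The letters found most often were those of the E-boxes, NFI and MEIS. CAGATG was found in 23.7% of deep intronic sites, against 12.7% of windows 1 kb away, and CAGCTG in 21.1% against 7.33%. The NFI site TTGGCA was found in 20.8% against 8.68%, MEIS TGACAG in 16.6% against 10.6%, RFX GTTGCCA in 6.18% against 1.82% and SP/KLF GGGCGG in 6.86% against 1.72%. RFX and NFI letters can overlap each other. Over all deep intronic windows the shares were 11.4% for CAGATG, 5.41% for CAGCTG, 7.58% for TTGGCA, 9.97% for TGACAG, 1.38% for GTTGCCA and 1.11% for GGGCGG. In the same order, far intergenic sites had 22.4%, 19.4%, 20.2%, 13.8%, 5.56% and 8.08%. Near intronic sites had 19.6%, 19.1%, 17.6%, 13.5%, 5.54% and 11.1%. These letters were thus not particular to deep intronic sites. In 28.5% of NFI matches and 39.2% of RFX matches a footprint of both libraries overlapped the letters, against 7.53% of MEIS and 7.6% of AP-1 matches. Footprints covered 14.9% (replicate 1) and 18.2% (replicate 2) of all bases in the windows. Coverage was lower in the bases of MEIS matches (9.41% and 12.2%) and AP-1 matches (8.41% and 10.85%). It was higher in those of NFI matches (31.2% and 38.9%) and RFX matches (39.15% and 48.8%).

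Against near introns, SP/KLF letters were found in 6.86% of deep intronic and 11.1% of near intronic sites, and MEIS letters in 16.6% and 13.5%. Some motifs were rarer in deep intronic sites than beside them, namely homeobox TAATTA (2.55% against 4.10%), SOX ACAATG (5.96% against 8.45%) and ROR TAGGTCA (0.525% against 1.46%). TCF/LEF CTTTGAT was in 1.54% against 2.29%, a ratio of 0.672 (0.473 to 0.955), but with 100 bp to each side the ratio was 0.80 (0.598 to 1.07) and with windows 2 kb away 0.781 (0.546 to 1.12), intervals that include 1. The GC content of the sites (51.3%) was higher than that of the DNA beside them (45.3%), and its part in these differences was not tested.

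Other motifs were found in fewer sites. AP-1 TGANTCA was in 5.62% of sites, against 4.54% of windows 1 kb away, the octamer ATGCAAAT in 1.16% against 1.11%, PU.1 GAGGAAGT in 1.24% against 1.05% and ETS CCGGAAG in 0.975% against 0.356%. CRE TGACGTCA was in 10 sites, MEF2 in 8, EGR GCGTGGGCG in 5 and the NFI palindrome in 3. The 165 sites with RFX letters had median percentiles of 42.6 in replicate 1 and 50.1 in replicate 2, beside 35.9 and 42.6 for the 2503 without them. The 183 sites with SP/KLF letters had 47.8 and 56.4, beside 35.9 and 42.1 without. None of the 19 motifs was found in 659 sites.

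**Figure D5:**
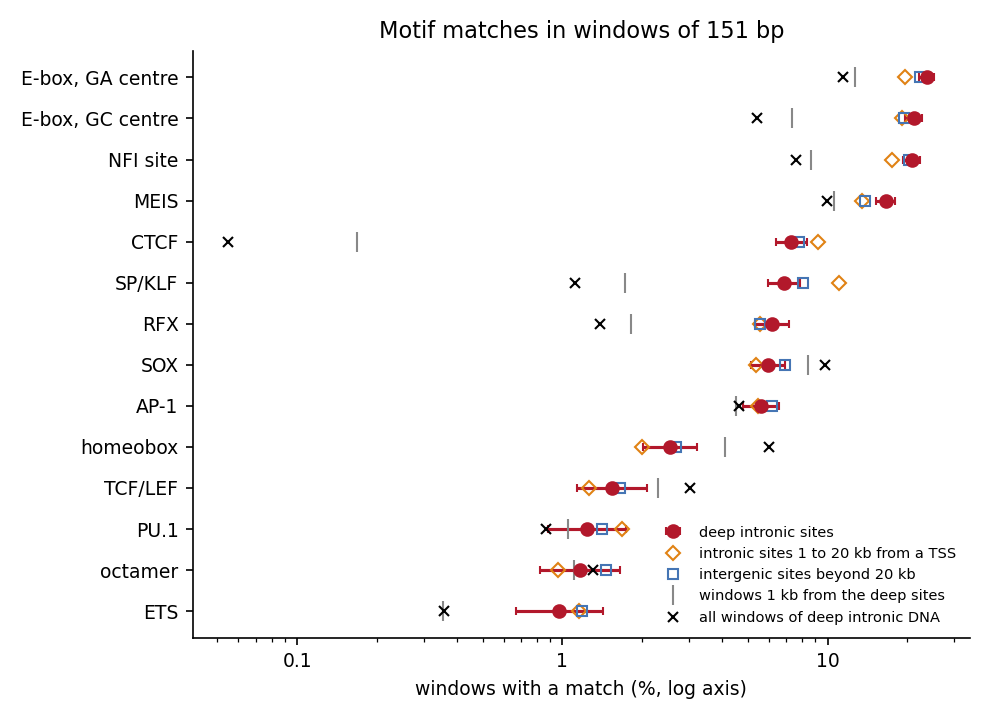
Percentage of windows of 151 bp with a match (log axis) for motifs found in 25 or more deep intronic sites; filled circles with 95% Wilson intervals are deep intronic sites, open symbols the other site classes, bars windows 1 kb from the deep sites and crosses all windows of deep intronic DNA. The E-box with a GA centre is CAGATG, that with a GC centre CAGCTG; for CTCF the sites stand at 7.31%, to the right of the 0.169% beside them.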

How the data were processed

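DNase-seq of frontal cortex was measured in 1 group of 2 biological replicates. The deposited peak lists were made by the authors from the reads of each library, not pooled, on mm10, and their signal is a cleavage density that the list of files deposited with each sample calls normalised for read depth. The hotspot lists give −log10 FDR values, per the file headers. The deposited footprints were made from filtered alignments and carry the same p-value threshold of 0.01 in every line. A deposited table of per-base p-values (FDR of the cut rate) gave the stricter list. Further footprint lists of replicate 2 hold positions only. For the aligner, the peak caller and the peak thresholds, a name or value is not given in the sources used here. Depth is unknown.

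The smaller read-derived lists were used. Peaks were placed by midpoint in GENCODE vM21 on the 19 autosomes, and a promoter peak lay within 1 kb of a TSS. Densities were ranked as percentiles within a library. Shares carry Wilson and rates exact Poisson 95% intervals. Shares were compared by two-sided Fisher's exact tests, Benjamini-Hochberg adjusted over all 40, of which 14 had an adjusted p under 0.05. Both the 40 and the 14 include tests of recurrence, which is part of the rule. Sites are not replicates, and the tests describe these libraries. The scripts were tested on simulated data. Sequences came from GRCm38.p6. Tools were Python 3.11.15, numpy 2.4.6, pandas 2.3.3, scipy 1.17.1, matplotlib 3.10.9, pysam 0.24.0 and samtools 1.23.1.

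Named were the 10 hosts with most sites, the 5 densest hosts of 3 or more sites, the 10 strongest and 3 farthest sites, and per gene list the 3 members with most sites and the one with most deep intronic DNA and no site; a few items that this rule names are not reported here. The members and lists were chosen with earlier results of these data known.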

Additional observations from a re-analysis of the deposited data

How the results depend on the processing

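No paired analysis was possible because the study has 1 group. The read-derived lists planned as an alternative are the main list and the looser list. The count of deep intronic sites was 1455 with the stricter list (per-base FDR), 4290 beyond 10 kb, 949 beyond 50 kb, 4737 with gene starts as the only TSSs, 4391 with the larger list from filtered alignments and 3362 to 4056 in single libraries. Host genes numbered 1966 beyond 10 kb, 448 beyond 50 kb and 2038 with gene starts. Sites per Mb were 4.55 with the stricter list, 12.2 with the looser, 10.1 with gene starts, 5.87 and 13.7 with the smaller and larger lists from filtered alignments and 10.5 to 12.7 in single libraries; the excess over far intergenic DNA was 4.21 per Mb with the looser list. Median percentiles of replicates 1 and 2 were 30.7 and 38.1 beyond 50 kb, 41.4 and 47.8 with gene starts, 42.7 and 50.3 with the larger alignment list, and 30.7 and 31.1 over all peaks of a single library. Fisher's exact tests with an adjusted p under 0.05 numbered 7 with the stricter list and 6 beyond 50 kb.

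Differences in share, deep intronic minus the other class, follow in percentage points. For peaks found in the other library, replicate 1 against far intergenic DNA reversed to 3.65 with lists of equal size and 1.94 with the larger alignment list, and was -1.94 with protein-coding TSSs only. Replicate 1 against near introns passed at -5.13 (equal size) and -1.97 (protein-coding TSSs). Replicate 2 against far intergenic DNA no longer passed at -1.53 (looser), -2.33 (beyond 50 kb) and -1.16 (larger alignment list), and against near introns it passed at -3.04 (gene starts). Within percentile bins of replicate 1, the difference from far intergenic DNA reversed to 0.865 between percentiles 25 and 50 (stricter) and to 5.62 below percentile 25 (equal size).

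For footprints, the difference from far intergenic sites in replicate 2 no longer passed at 1.15 (stricter), 0.0736 (looser), 0.638 (50% reciprocal overlap), 0.682 (equal size), 1.75 (beyond 50 kb) and 1.13 (smaller alignment list), and in replicate 1 it passed at 3.46 (larger alignment list). The difference from near introns passed in replicate 1 at 2.04 (looser) and 2.74 (gene starts), and in replicate 2 at 2.33 (looser), 1.46 (equal size), 2.03 (beyond 10 kb), 1.26 (protein-coding TSSs), 3.24 (gene starts), 2.42 (replicate 2 alone) and 0.871 (the larger other footprint list). It reversed to -3.93 in replicate 1 and -2.49 in replicate 2 with the larger alignment list, and to -4.18 with the smaller other footprint list, where between percentiles 25 and 50 it was -0.50. Ratios of motif shares to windows beside the sites became 3.37 for CAGCTG and 175 for CTCF within 50 bp, and 2.72 for NFI with windows 2 kb away. The CTCF ratio within 50 bp rests on 2 matches in 5336 windows beside the sites, and the main one on 9. The cause of these changes was not tested. Without depths, sites seen in 1 library only cannot be judged absent from the other.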
